A study of Mus musculus with 8 samples.

Results

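The genes described here are Ptprz1, its closest relative Ptprg, and the growth factor genes Ptn and Mdk, 4 of 19938 genes measured on arrays of cultured mouse aortic smooth muscle cells. They were taken by name from the gene annotation of the array, and each was represented by 1 probe set. Ptprz1 was picked because its level was already known to differ between these groups, and the other members because they are its paralogue and ligands. The differences of all 4 are therefore given as descriptions, without p-values, and the calls counted for them below are no test of them. The 2 groups were 4 arrays of cells given 100 nM jasplakinolide, a cell-permeable compound that stabilises actin filaments, and 4 arrays of control cells without it. All cells were primary cultures from C57Bl6 mice at passage 3 to 4, kept for 24 h in DMEM with 10% FCS, which is fetal calf serum. Values are log2 expression levels from RMA, the authors' method of background correction, normalization and summary over probes, so that a difference of 1 is a 2-fold change. Nothing in the labels says whether the replicates were separate cultures or animals. A p-value here therefore speaks only of the scatter among these arrays, and part or all of that scatter may be technical.

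Ptprz1 encodes a receptor-type protein tyrosine phosphatase of the cell surface, best known from glia and developing brain. Its outer part starts with a carbonic anhydrase-like domain and a fibronectin type III domain and carries chondroitin sulfate chains, and splicing can also give a secreted form made of the outer part alone, called phosphacan. Ptprg encodes the other phosphatase with a carbonic anhydrase-like domain. Ptn (pleiotrophin) and Mdk (midkine) are related heparin-binding growth factors. Pleiotrophin binds the outer part of Ptprz1 and inhibits its phosphatase, so that phosphorylation of substrates such as beta-catenin goes up. Smooth muscle and endothelial cells are among the vascular cells in which these factors have been studied. A probe set for a whole gene does not tell the membrane forms of Ptprz1 from the secreted one.

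Ptprz1 was the member that stood apart between the groups. Its level was 10.68, 10.72, 10.71 and 10.85 on the jasplakinolide arrays 1 to 4, against 9.66, 9.20, 8.94 and 8.87 on the control arrays 1 to 4. The groups did not overlap, and the lowest jasplakinolide array lay 1.02 above the highest control array. The means were 10.74 ± 0.08 with jasplakinolide and 9.17 ± 0.36 in control (SD, n = 4 each). The log2 difference was 1.57 ± 0.15 (SE from the fit to all genes), or 2.97-fold, which put Ptprz1 in place 2 of 19938 genes ordered by rise. Between arrays of the same number the fold was 2.02, 2.88, 3.39 and 3.94 for numbers 1 to 4.

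The spread of Ptprz1 lay in the control group. The jasplakinolide arrays covered a range of 0.17 on the log2 scale, against 0.79 for the control arrays. Control 1 was the highest control array by a wide step, and 98.7% of all genes had a smaller pooled within-group SD than Ptprz1 (0.26). Without control 1 the log2 difference of Ptprz1 was 1.74 ± 0.08 (SE), and with any other array left out it lay between 1.47 and 1.59. In each of these 8 fits Ptprz1 kept place 2 among the rises.

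**Figure D1:**
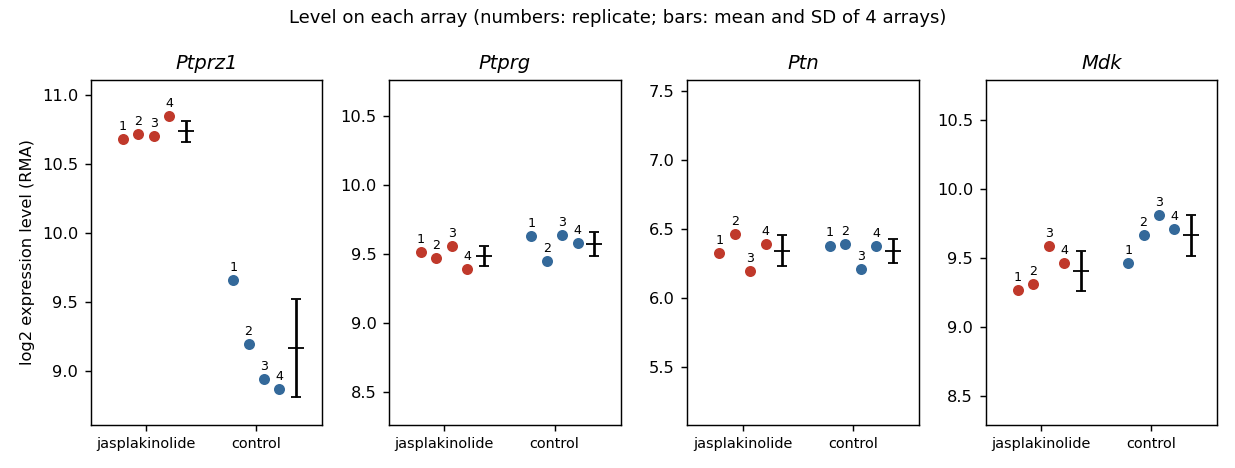
Level of the 4 genes on each array, in log2 units (RMA), with jasplakinolide arrays in red and control arrays in blue, replicate numbers above the points, and the mean and SD of 4 arrays as bars. All panels span the same height; only for Ptprz1 do the groups not overlap, and control 1 is the highest control array there.

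The genes whose values over the 8 arrays were most like those of Ptprz1 were found by the root mean square distance between log2 levels, each gene first centred on its own mean over the arrays. The nearest was Nppb, the B-type natriuretic peptide, at a distance of 0.12, against a median distance of 0.82 over 18614 named genes. A gene with the same level on all arrays would also lie at 0.82 from Ptprz1. The distance therefore depends mostly on the difference between the groups, and genes with large rises come out as near. Nppb had 8.96, 9.14, 9.07 and 9.44 on the jasplakinolide arrays 1 to 4, against 8.04, 7.75, 7.57 and 7.43 on the control arrays 1 to 4. Its arrays stood in the same order as those of Ptprz1 within each group, with control 1 the highest control array and jasplakinolide 4 the highest treated one. Of the other 19937 genes, 7 had this order within both groups. Nppb was the only one of the 7 in which all jasplakinolide arrays lay above all control arrays. As Nppb was picked as nearest over these same arrays, the shared order is a description and no separate evidence of likeness.

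After Nppb came Efhd1 at 0.21, which encodes a calcium-binding protein of mitochondria, and Popdc2 and Bves at 0.26 each, which encode cAMP-binding membrane proteins of the Popeye family. Cnn1 (calponin, an actin-binding protein of smooth muscle) lay at 0.27 and Dmd (dystrophin) at 0.30. Kcnmb1, an accessory subunit of the BK potassium channel, followed at 0.34 and Ppbp, a chemokine of platelets, at 0.39. Control 1 was the highest control array in 5 of these 8 genes, namely Nppb, Efhd1, Bves, Dmd and Ppbp, which describes genes chosen over these same arrays. The log2 differences of the 8 genes ran upward from 0.93 for Ppbp, and Kcnmb1 alone had a larger one than Ptprz1. All 8 were among the largest rises of all genes, with Ppbp the lowest of them at place 11. They were chosen for their likeness to Ptprz1, so their differences carry no test.

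**Figure D2:**
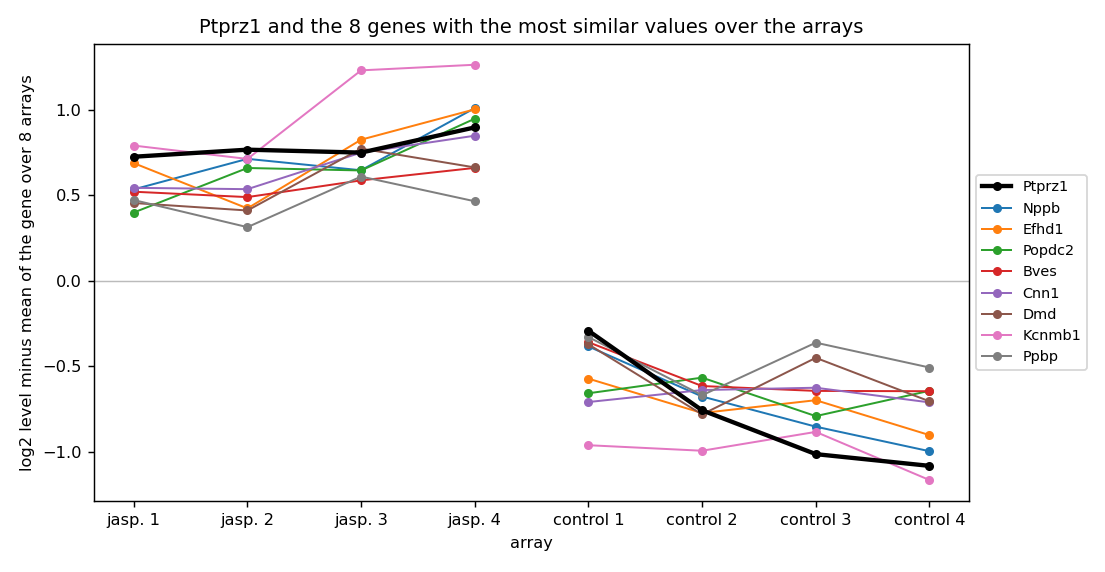
Log2 level of Ptprz1 (black) and of its 8 nearest genes on each array, minus the mean of the gene over the 8 arrays; lines join arrays of 1 group only to guide the eye. Ptprz1 and Nppb run closest together, at a root mean square distance of 0.12, and share the high control 1.

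The promoters of Ptprz1 and Nppb are shown because Nppb was the nearest gene by this distance. Each window holds 250 bases before and 50 after the start of the gene, from RefSeq on GRCm38.p6, printed 5′ to 3′ on the plus strand. Ptprz1 lies at chr6:22875252-22875551 and Nppb at chr4:147985650-147985949. Capitals mark matches to the motifs searched.
Ptprz1: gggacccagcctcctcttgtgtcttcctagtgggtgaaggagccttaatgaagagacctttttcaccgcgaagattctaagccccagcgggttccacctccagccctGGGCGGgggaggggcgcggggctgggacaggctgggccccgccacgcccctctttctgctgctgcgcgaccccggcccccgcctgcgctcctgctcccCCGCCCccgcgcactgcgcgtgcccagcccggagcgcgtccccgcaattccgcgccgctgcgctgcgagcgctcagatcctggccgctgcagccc
Nppb: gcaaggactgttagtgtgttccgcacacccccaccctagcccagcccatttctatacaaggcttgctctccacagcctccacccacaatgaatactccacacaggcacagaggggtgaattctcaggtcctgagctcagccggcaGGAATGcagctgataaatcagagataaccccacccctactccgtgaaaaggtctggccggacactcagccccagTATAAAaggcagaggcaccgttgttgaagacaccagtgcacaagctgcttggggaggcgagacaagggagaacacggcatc

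The 5 motifs searched on both strands were the CArG box, which serum response factor binds, the AP-1 motif TGANTCA, the MCAT motif GGAATG of TEAD factors, TATAAA and the GC box GGGCGG. The Ptprz1 window had 2 GC boxes, at -143 and -45 from the start, and no match to the other motifs. It was rich in G and C (71.7%), more so than 92.6% of the 32851 promoter windows. The Nppb window had an MCAT motif at -105 and TATAAA at -31, and 55.7% G and C. These windows shared no motif of those searched. Among the other near genes, Dmd had a CArG box (CCTATTATGG) at -98 in 1 of its 2 windows and Ppbp one (CCTTTTATGG) at -87. Both of these windows also held AP-1 and TATAAA matches, and that of Ppbp an MCAT motif. GC boxes lay in the Efhd1 window and the other Dmd window, and an MCAT motif in the Popdc2 window. The windows of Cnn1 and Kcnmb1 held none of the 5 motifs. Of all windows 1.63% held a CArG box, 7.81% an AP-1 motif, 14.7% an MCAT motif, 13.6% TATAAA and 35.7% a GC box. The windows of Ptprg (2) and Ptn (1) held none of the 5 motifs. Promoters were matched for 10 of the 12 genes looked up, and those without an entry were Mdk and Bves. A match is a string of letters and not a site known to be bound.

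Ptprg, the paralogue, did not share the difference of Ptprz1. Its level was 9.52, 9.47, 9.56 and 9.39 on the jasplakinolide arrays 1 to 4, against 9.63, 9.45, 9.64 and 9.59 on the control arrays 1 to 4. The groups overlapped, since control 2 was lower than 3 of the 4 treated arrays. The means were 9.49 ± 0.07 with jasplakinolide and 9.58 ± 0.09 in control (SD, n = 4 each), a log2 difference of -0.09 ± 0.06 (SE). With any array left out this difference lay between -0.13 and -0.06.

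Mdk, one of the ligand genes, was lower by a small step in every same-numbered pair. Its level was 9.27, 9.31, 9.59 and 9.46 on the jasplakinolide arrays 1 to 4, against 9.47, 9.67, 9.81 and 9.71 on the control arrays 1 to 4. The groups overlapped, because jasplakinolide 3 was higher than control 1. The means were 9.41 ± 0.14 with jasplakinolide and 9.67 ± 0.15 in control (SD, n = 4 each), and the log2 difference was -0.26 ± 0.09 (SE), or 1.19-fold lower. The pair differences were -0.19, -0.36, -0.23 and -0.25 for numbers 1 to 4. A lower value in all 4 pairs was seen in 11.5% of all genes, and a higher value in all 4, as in Ptprz1, in 13.0%. Arrays with the number 3 had the highest Mdk level of both groups.

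Ptn was level between the groups and dim. It read 6.32, 6.47, 6.20 and 6.39 on the jasplakinolide arrays 1 to 4, against 6.38, 6.39, 6.21 and 6.38 on the control arrays 1 to 4. The groups overlapped, with all control arrays inside the range of the jasplakinolide arrays, and arrays with the number 3 were the lowest in both groups. The means were 6.34 ± 0.11 with jasplakinolide and 6.34 ± 0.09 in control (SD, n = 4 each), and the log2 difference was 0.00 ± 0.07 (SE). Its mean over all arrays, 6.34, was under the level of 6.44 that bounds the dimmest 25% of genes.

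Olfactory receptor genes, 1027 of which were on the array, give an idea of how dim a probe set of a mostly silent gene can be. On the control arrays 89.1% of them had a lower mean than Ptn, and the share was 99.9% or above for Ptprz1, Ptprg and Mdk. Signals of different probe sets do not measure amounts of RNA against each other, and this shows only how near a member was to the dim range. No gene is called absent, as detection calls were not used here.

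A gene was said to have passed the test at an adjusted p under 0.05 (limma, Benjamini-Hochberg over all 19938 genes). By this threshold 1 of the 4 members, Ptprz1, was called, against 0.772% of all genes (0.436% higher and 0.336% lower). With the replicate number as a block 2 of the 4, Ptprz1 and Mdk, were called, against 1.89% of all genes (0.813% higher and 1.08% lower). The groups did not overlap in 1 of the 4 members, against 6.91% of all genes. As Ptprz1 was chosen on this same contrast and the other members through it, nothing is read from these shares or from the calls of Ptprz1 and Mdk. Of the 154 genes called in all, 87 were higher and 67 lower. After median centring 69 were higher and 34 lower, and after renewed quantile normalization 131 were higher and 146 lower.

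**Figure D3:**
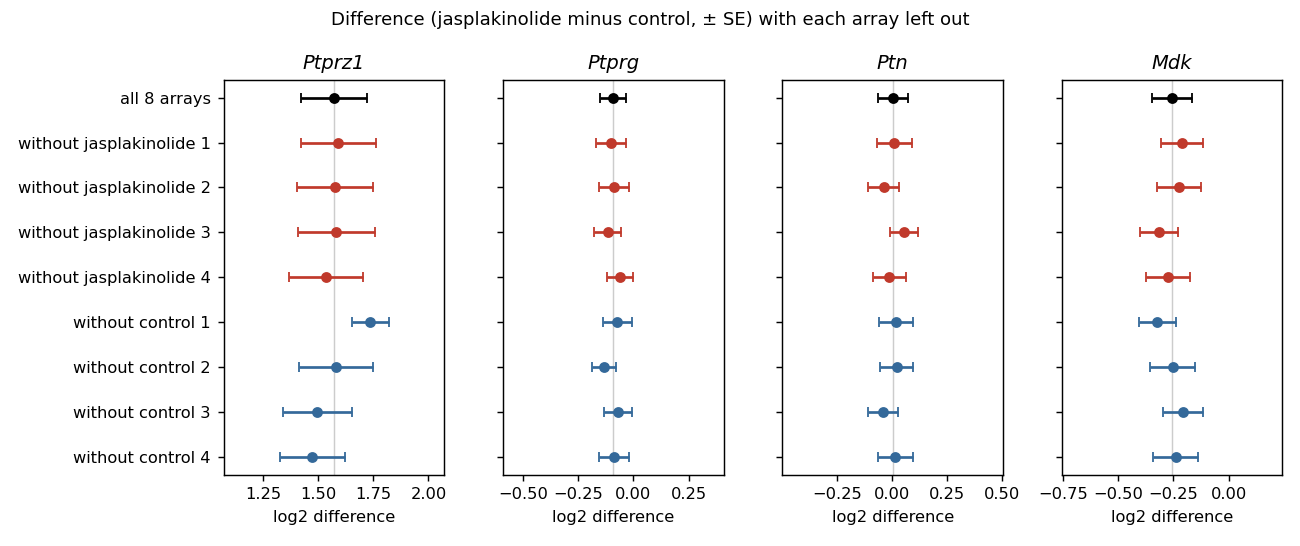
Log2 difference (jasplakinolide minus control, ± SE) of the 4 genes in all 8 arrays (black) and with each jasplakinolide array (red) or control array (blue) left out; every panel spans 1 log2 unit. Ptprz1 moves most without control 1, to 1.74, and Ptn stays between -0.04 and 0.05.

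The wider pathway was followed through 5 lists with 88 measured genes. Of these 2 passed the test, both higher, against 0.436% of all genes that passed higher and 0.772% in either direction. The median log2 difference was 0.02, against 0.01 over all genes. Groups did not overlap in 11 of the 88, 10 of them higher and 1 lower, against 3.62% (higher) and 3.29% (lower) of all genes. The higher ones fell as 5, 1, 3, 0 and 1 on the lists in the order given below. The lower one was in the third list.

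Of 20 other receptors and surface partners of pleiotrophin and midkine, 1 rose and 19 did not pass. The gene that rose was Itga6, the integrin alpha 6 subunit, part of an integrin that binds midkine and of laminin receptors. Itga6 had 10.99, 10.89, 10.92 and 10.87 on the jasplakinolide arrays 1 to 4, against 10.72, 10.51, 10.63 and 10.55 on the control arrays 1 to 4. Every treated array lay above every control array, and the log2 difference was 0.32 ± 0.06 (SE; limma adjusted p = 0.0433). Among the 8 fits to 7 arrays the call held only without control 1; elsewhere the adjusted p was 0.0712 to 0.173, and after median centring it was 0.112. The median difference of the list was 0.06, and 15 of its 20 genes had a difference above 0, as had 56.4% of all genes. Other members without a call included the syndecan Sdc2, the integrin subunits Itgav and Itgb3, the neuropilin Nrp1 and the receptor kinase Alk, and the whole list ranged from -0.22 to 0.32.

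Of 12 extracellular binding partners of the phosphatases, 1 rose and 11 did not pass. Ncam1, a neural cell adhesion molecule, had 10.64, 10.58, 10.83 and 10.85 on the jasplakinolide arrays 1 to 4, against 10.29, 10.24, 10.40 and 10.35 on the control arrays 1 to 4. The groups did not overlap, and the log2 difference was 0.40 ± 0.07 (SE; limma adjusted p = 0.0408). The call was lost in each of the 8 fits to 7 arrays, with an adjusted p of 0.0530 to 0.139, while the difference stayed between 0.36 and 0.45. Contactins are neuronal adhesion proteins that bind the carbonic anhydrase-like domains, Cntn1 that of Ptprz1 and others that of Ptprg. Cntn1 read 6.12 ± 0.06 with jasplakinolide and 6.01 ± 0.10 in control (SD, n = 4 each), and 82.3% of olfactory receptor genes were dimmer in control. The matrix protein gene Tnc (tenascin C) read 12.81 ± 0.08 with jasplakinolide and 12.74 ± 0.10 in control (SD, n = 4 each). The median of the list was 0.05.

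None of 16 measured substrates and inner partners of Ptprz1 passed the test, and their median difference was -0.02. The largest differences were those of the tyrosine kinase Src, 0.17 ± 0.04, and of the scaffold protein gene Dlg4, 0.14 ± 0.05 (SE). The adjusted p of Src was 0.132 (limma), and it passed among the brighter 50% of genes (0.0326), with array weights (0.0393) and when the prior followed the intensity (0.0485). Ctnnb1, which encodes beta-catenin, read 12.79 ± 0.05 with jasplakinolide and 12.83 ± 0.03 in control (SD, n = 4 each).

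None of 18 other receptor-type tyrosine phosphatases passed, and differences in this family ran from -0.11 for Ptprd to 0.13 for Ptprn, with a median of 0.00. Ptprd differed by -0.11 ± 0.12 and Ptprn by 0.13 ± 0.06 (SE). The difference of Ptprd hung on single arrays: it was -0.01 without jasplakinolide 4, -0.05 without control 1 and -0.20 without jasplakinolide 1. With array weights it turned to 0.0463, and that of Ptprn was 0.07. The groups overlapped in all 18, as they did in Ptprg, while 6.91% of all genes had groups that did not overlap. Among the receptor phosphatases measured here Ptprz1 alone had such groups. As Ptprz1 was chosen on this same contrast, nothing is read from that.

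None of 22 enzymes that build or sulfate chondroitin sulfate passed, and their median difference was 0.01. Csgalnact1, which adds the first N-acetylgalactosamine of the chain, differed by -0.21 ± 0.08, and the 4-O-sulfotransferase gene Chst12 by 0.15 ± 0.04 (SE). Without control 3 the difference of Csgalnact1 was -0.13. Chst12 was the 1 gene of the 22 whose groups did not overlap, against 6.91% of all genes. Unadjusted, 13 of the 88 pathway genes had a p under 0.05, against 8.87% of all genes.

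**Figure D4:**
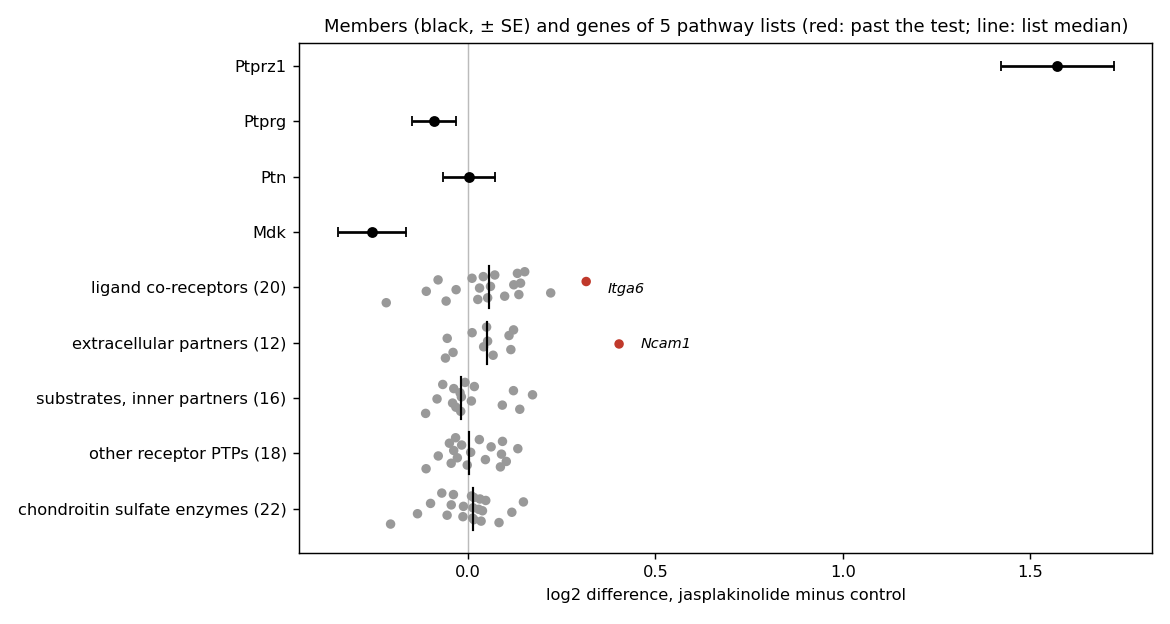
Log2 difference, jasplakinolide minus control, of the 4 members (black, ± SE) and of the genes of 5 pathway lists (1 point per gene; number of genes in brackets; red for genes past the test; a vertical line at each list median). Ptprz1 lies at 1.57, and the genes of the lists lie between -0.22 and 0.40.

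Markers were used to check which cells the cultures held. Of 8 markers of contractile smooth muscle, 5 rose with jasplakinolide (Cnn1, Myh11, Lmod1, Tagln and Acta2), against 0.436% of all genes. Myocd, Smtn and Des did not pass, and Des was lower, by -0.16. The level summed over the list (log2 of the summed linear signals) was 14.93 to 15.02 with jasplakinolide, against 14.48 to 14.50 in control. Endothelial markers were also bright, with Cdh5 (VE-cadherin) at 13.09 ± 0.06 with jasplakinolide and 13.17 ± 0.03 in control (SD, n = 4 each). In control Emcn read 13.41 and Pecam1 12.48, with Vwf the dimmest of the list at 8.08. Which cells the Ptprz1 signal came from was not tested. Of 10 endothelial markers 1, Robo4, fell (3 with the replicate block), against 0.336% of all genes (1.08% with the block). In 5 of the 10 the groups did not overlap, all lower, against 3.29% of all genes. The gap between the groups was -0.27 for Robo4 and -0.07 for Pecam1, but only -0.014 for Kdr, -0.0087 for Cdh5 and -0.0016 for Tek. The summed level was 15.08 to 15.21 with jasplakinolide, against 15.22 to 15.28 in control. Of 7 fibroblast markers none passed (1 with the block, Dcn, lower, against 1.08% of all genes). In 2, Dcn and Dpt, the groups did not overlap, both lower, against 3.29% of all genes. Dpt was dim, at 5.55 in control, where 69.3% of olfactory receptor genes were dimmer. The sum over the list was 13.55 to 13.78 with jasplakinolide, against 13.99 to 14.09 in control. It came mostly from Cd34 (13.15 in control) and Dcn (12.79), the brightest of the list. Their differences were -0.22 and -0.54, against -0.03 for Pdgfra, 0.00 for Col14a1, 0.06 for Pi16 and -0.06 for Lum. Of 8 markers of Schwann cells and glia, the cells best known for Ptprz1, none passed, and their differences ran from -0.09 to 0.08. Their sum was 9.77 to 10.10 with jasplakinolide, against 9.74 to 10.05 in control, and among them Sox10 read 7.49 ± 0.16 with jasplakinolide and 7.46 ± 0.16 in control (SD, n = 4 each). Of 7 macrophage markers none passed (1 with the block, Cd68, lower, against 1.08% of all genes). The groups overlapped in Cd68, while Lyz2 was higher by 0.17 without overlap, against 3.62% of all genes. The sums were 11.42 to 11.51 with jasplakinolide, against 11.35 to 11.49 in control. Cnn1 is also one of the genes nearest to Ptprz1, and the macrophage marker Ptprc is also among the receptor phosphatases above. RMA levels have no zero, so no marker can be read as 0. In bulk samples, fewer cells of a type and less RNA per cell cannot be told apart, and the part of the smooth muscle, endothelial and fibroblast markers in the difference of Ptprz1 was not tested.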

How the data were processed

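Gene expression was measured on 8 Affymetrix arrays, 4 per group. The authors deposited log2 levels for 35556 probe sets. Per the submitters' processing notes they used RMA and Affymetrix Expression Console, with versions not given in the sources used here. Probe sets with 1 gene symbol (21789) were kept, those with several (1621) or none (12146) left out, and per gene the one with the highest mean was taken, which gave 19938 genes. No filter on dim genes was used. The number of arrays limits the precision.

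The test was a two-sided limma fit (version 3.58.1, R 4.3.3; lmFit, then eBayes with its defaults). Its p-values were adjusted by Benjamini-Hochberg over the 19938 genes, with a threshold of 0.05, and it was tested on simulated data. Promoters were searched in Python 3.11.15 and figures drawn with matplotlib 3.10.9. After subtraction of group means, arrays that share a replicate number correlated at 0.24 to 0.56 in all 4 pairs. The 12 pairs with unlike numbers spanned -0.62 to 0.52, which overlaps that range. In 6 cases out of 8 the strongest match in the other group was the array of the same number. The replicate number was therefore read only as a possible pairing, which comes from the data, not the labels. Values come from the fit without a block, unless the text names the block. That fit called 154 genes, against 377 with the block. The members and lists were chosen with earlier results of these data known. Named were the 4 members, of each list the genes past the test or else the 2 with the largest differences, and the 8 genes nearest to Ptprz1 (predicted genes left out). Other genes, such as Sdc2, Cntn1, Tnc and Ctnnb1, were named for their roles after their values were seen. Alternatives were a block for the replicate number, array weights, the mean of the probe sets of a gene, the brighter 75% or 50% of genes alone, renewed quantile normalization, median centring, a robust prior that follows the intensity, and fits without each array in turn.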

Additional observations from a re-analysis of the deposited data

Results flagged for a closer look

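In 3 of 40 groups of 4 arrays examined (members, named pathway genes and the genes nearest to Ptprz1), 1 array lay far from the other 3; chance gives such a gap in about 1 of 20 groups. Ptn read 6.21 on control 3, against 6.38 to 6.39 on the other control arrays. Chst12 read 11.11 on jasplakinolide 4, against 11.01 on each of the other jasplakinolide arrays. Bves read 8.22 on control 1, against 7.94 to 7.97 on the other control arrays.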

How the results depend on the processing

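The log2 difference of Ptprz1 lay between 1.56 and 1.67 under the 8 settings other than leaving out an array, and between 1.47 and 1.74 with 1 array left out. Mdk lay between -0.33 and -0.24 under those settings and between -0.32 and -0.21 with 1 array left out, Ptprg between -0.10 and -0.08 and between -0.13 and -0.06. Ptn was between -0.00495 and 0.0131 in the 6 settings that kept it (it was under both brightness filters) and between -0.04 and 0.05 with 1 array left out. None of these moved by more than the pooled SD of the gene. The count of all genes called was 377 with the replicate block, 296 among the brighter 50% of genes, 277 after a second quantile normalization, 358 when the robust prior followed the intensity, 457 with array weights, and 43 to 150 with 1 array left out. The pathway genes called were 1 after median centring (Ncam1), 4 with array weights (Itga6, Ncam1, Sdc2 and Src) and 0 to 1 with 1 array left out. The difference of Ptprd turned to 0.0463 with array weights, and the cause was not tested. The replicate block changed no call among the pathway genes named by the rule. Fits without an array have fewer samples.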

Other observations

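Of the 87 genes that rose with jasplakinolide, 44 had control 1 as the highest of the 4 control arrays, as Ptprz1 did, and the same was true of 25.8% of all genes. The order of the 4 control arrays seen in Ptprz1 was shared by 4.18% of the other genes, and the order of its 4 jasplakinolide arrays by 7.26%.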
